A study of Danio rerio with 8 samples.

Results

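The normal liver of the zebrafish larva (Danio rerio) was described here from the 4 wild-type (WT) libraries of a series of 8 libraries, and these 4 were chosen by their label alone. Each library held total RNA from a pool of 10 livers dissected from untreated larvae at an age of 7 days, which is 7 days after fertilization. The series was made to compare WT livers with livers of the transgenic line lf:YAP, and the 4 lf:YAP libraries were not used here. Larvae had been kept in multiwell plates from day 3 on, and the labels give no strain beyond WT and nothing on how many clutches or days the 4 pools represent. The spread between pools reported below may therefore be technical in part. Every value was read from the submitters' counts of reads per gene, and with only 1 group there was no comparison to test.

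The liver is the main source of plasma proteins, and hepatocytes, which make up most of its mass, secrete carriers, clotting factors, complement and lipoproteins into the blood. The same cells hold the enzymes that break down amino acids, release glucose, make bile and clear foreign compounds. In the zebrafish larva the liver lies against the gut and the exocrine pancreas, so a dissected liver can carry RNA of these neighbours.

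The libraries held 2853543 to 3797709 counts on named rows of the table. A single row of ribosomal RNA took 26.4% ± 8.02 of them, and 37 rows of the mitochondrial genome took 31.2% ± 8.68, as mean and SD over n = 4 pools. The remaining share was nearly the same in all pools, at 42.6%, 41.4%, 43.6% and 42.1% in pools 1 to 4. The ribosomal share was highest in pool 3 at 36.6% and lowest in pool 4 at 16.9%, and the mitochondrial share had the opposite order, with 19.9% in pool 3 and 41.0% in pool 4. Most of the mitochondrial counts lay on 2 rows known only by an accession, while the 13 mitochondrial protein genes together took 1.99% ± 0.686, led by mt-co1, a subunit of cytochrome oxidase, with 0.832% ± 0.318.

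**Figure D1:**
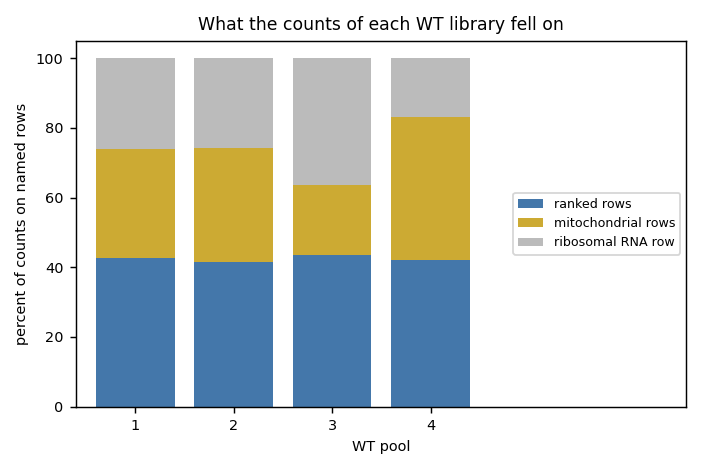
Each bar is 1 WT pool of 10 livers, and its height is the percent of the counts on named rows that fell on the ribosomal RNA row (grey), on the mitochondrial rows (yellow) and on all other named rows (blue), which are the ranked rows. The blue part lay between 41.4% and 43.6% in the 4 pools, while the grey part ranged from 16.9% to 36.6%.

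The ribosomal and mitochondrial rows were set aside, and the other 28561 named rows were ranked by their mean CPM, which are counts scaled to a total of 1000000 over the ranked rows of a library. Those rows held 1194211 to 1598200 counts in a library. CPM values on this scale were 2.29 to 2.42 times as high as over all named rows. They are counts, not counts per length, so a long transcript collects more of them than a short one at the same number of molecules. A level is given below as mean ± SD over the 4 pools (n = 4), and the levels of different genes are compared only as the counts they took.

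The 4 genes taken as markers of the larval liver stood among the 30 highest rows. Fetuin-B (fetub), a secreted protease inhibitor, was the highest annotated gene and ranked second of all rows. Its levels were 41608, 39966, 38434 and 23735 CPM in pools 1 to 4, with pool 4 below the other 3. Fibronectin 1b (fn1b), a plasma and matrix protein, ranked 8 with 12135, 10507, 10120 and 10259 CPM. Liver fatty acid binding protein (fabp10a), the standard marker of zebrafish hepatocytes, ranked 21 with 5995, 5423, 4819 and 6910 CPM. Transferrin (tfa), the iron carrier of plasma, ranked 30 with 3871, 3549, 3200 and 4596 CPM. Both fabp10a and tfa were highest in pool 4 and lowest in pool 3, and the order of pools thus differed between markers of the same cell type. The lowest pool of these genes depended on the scaling. With TMM factors, which rest on the bulk of genes, it was pool 2 for both, and pool 4 stayed the highest. All 4 markers were abundant in every pool, and none went against the label of a liver sample.

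A few transcripts took a large part of the counts. The 10 highest rows held 21.3% of the mean ranked CPM, the 30 highest 33.4% and the 100 highest 46.7%, and 128 rows held 50% of it. Counted in single libraries, 50% lay on 112, 134, 101 and 162 rows in pools 1 to 4, so the counts were spread most widely in pool 4. At least 1 CPM in all 4 pools was reached by 11685 rows, whose median level was 14.5 CPM, and 134 rows reached a mean of 1000 CPM. This limit of 1 CPM, also used for the lists below, is less than 3 counts in a single pool, which are 1.88 to 2.51 CPM. Rows that only just reach it were seen but not measured.

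**Figure D2:**
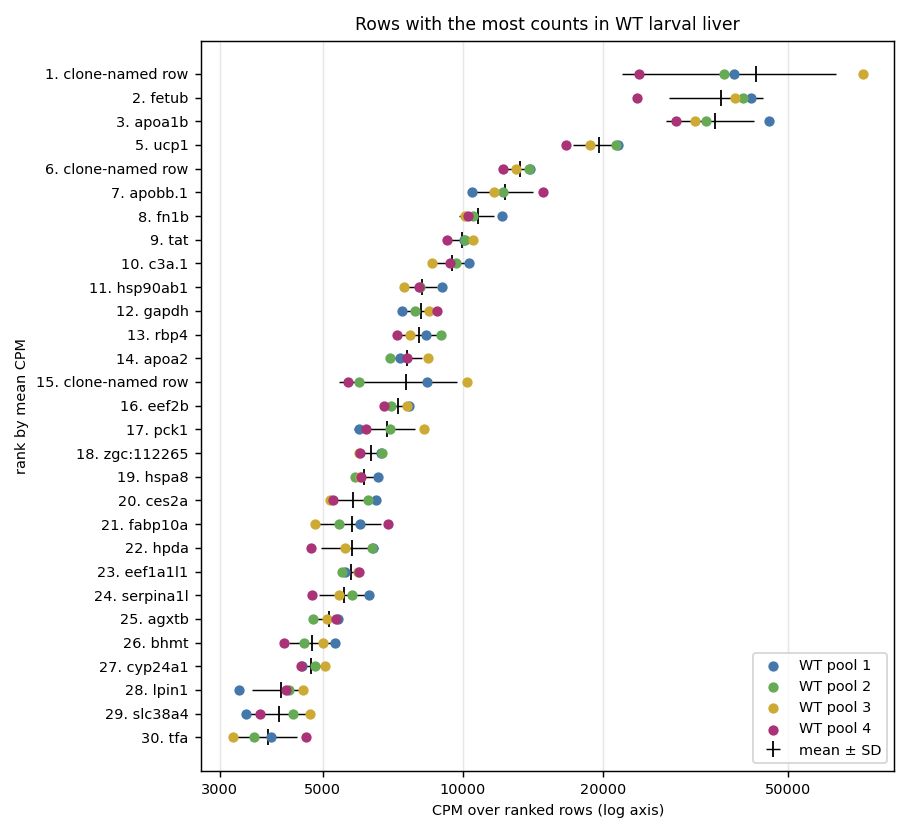
Points are the CPM over ranked rows (log axis) of the 4 WT pools for 29 of the 30 rows with the highest mean, and the black tick and bar are the mean ± SD. Rows known only by a clone accession are marked as such; fetub and apoa1b, the highest annotated genes, had a mean of 35936 and 34787 CPM, and tfa, at rank 30, had 3804 CPM.

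The highest row of all carried only the accession of a genomic clone and matched no RefSeq symbol, so no gene name is given to it. Its levels were 38267, 36460, 72477 and 23963 CPM in pools 1 to 4, highest and lowest in the pools where the ribosomal RNA share was also highest and lowest. Whether it carries ribosomal sequence was not tested. The other rows with clone or placeholder names took 6.89%, 6.76%, 6.855% and 6.73% of the ranked counts in pools 1 to 4, with no excess in pool 3 as a sum. Single rows among them did differ. The clone-named row at rank 15 had 8394, 5969, 10212 and 5656 CPM, also highest in pool 3 and lowest in pool 4. Of all rows with such names that differed at least 2-fold at 50 CPM, 17 were highest in pool 3. Another 12 were highest in pool 4, 4 in pool 1 and 1 in pool 2. Among all 213 rows with such a difference, 31 were highest in pool 3, 127 in pool 4, 41 in pool 1 and 14 in pool 2. How many rows with clone or placeholder names reached 50 CPM is not given here. A pair of non-coding RNAs moved between pools like the highest row. 7SK RNA (rn7sk), a regulator of transcription elongation, had 2079, 1996, 3573 and 1315 CPM, and the RNA part of RNase P (rpph1) had 607.5, 533.4, 1075 and 428.0 CPM. These 2 were named after their values had been seen.

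Metabolic genes also stood among the 10 highest rows. Uncoupling protein 1 (ucp1), known in mammals from brown fat, ranked 5 with 21524, 21375, 18743 and 16673 CPM. Tyrosine aminotransferase (tat), the first enzyme of tyrosine breakdown, had 10061, 10091, 10504 and 9240 CPM. Both were lowest in pool 4, and the coefficient of variation (CV), which is the SD divided by the mean, was 11.9% for ucp1 and 5.31% for tat. Counting error alone would give these genes a CV of under 1% (0.626% and 0.877%).

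Plasma carriers and binding proteins formed the highest of 47 gene lists. Of 48 listed genes 37 were in the table, 31 reached 1 CPM in every pool, and together they took 8.66%, 8.36%, 7.87% and 6.58% of the ranked counts in pools 1 to 4. Fetub made up 45.7% of this sum, and without it the list held 4.028% to 4.503%, so most of the difference between pools lay in that gene. Of the 31 members with at least 10 CPM, 15 were highest in pool 1 and 17 lowest in pool 3, against 25.4% and 35.9% of all 7186 rows at that level. The pool of the lowest level depended on the scaling. With TMM factors, which rest on the bulk of genes, 8 members were lowest in pool 3, against 20.3% of all rows. With these factors 14 members were lowest in pool 4 and 14 were still highest in pool 1. The TMM shares of all rows for pools 4 and 1 are not given here, so no excess is read from those counts. Retinol binding protein 4 (rbp4), the vitamin A carrier, followed with 8052 ± 771 CPM. The insulin-like growth factor binding proteins igfbp1a and igfbp1b, which are known to be induced by fasting, had 3533 ± 421.5 and 2155 ± 303 CPM. Transthyretin (ttr), a carrier of thyroid hormone, had 718.0 ± 149 CPM, and selenoprotein P (selenop), which carries selenium, had 1732 ± 183 CPM. Thyroxine-binding globulin (serpina7) varied more, with 173.1, 87.09, 49.87 and 88.22 CPM.

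Apolipoproteins and the genes of lipoprotein assembly took 6.58% ± 0.556. Apolipoprotein A-Ib (apoa1b), the main protein of high-density lipoprotein, held 52.8% of that share with 45498, 33346, 31564 and 28740 CPM, highest in pool 1. Apolipoprotein Bb.1 (apobb.1), the backbone of very-low-density lipoprotein, showed another order, with 10484, 12207, 11682 and 14847 CPM and its highest level in pool 4. Apolipoprotein A-II (apoa2) had 7571 ± 607.6 CPM, and the microsomal triglyceride transfer protein (mttp), which loads lipid on apolipoprotein B, had 204.5 ± 33.2 CPM. The paralog apoa1a had only 86.56, 173.3, 191.4 and 282.2 CPM, though reads of the 2 copies may have been shared out between them or left out. Apolipoprotein Eb (apoeb) had 190.7, 295.6, 277.5 and 572.5 CPM, and apolipoprotein Ea (apoea) had 33.66, 78.71, 71.58 and 213.4 CPM. These 3 genes were lowest in pool 1 and highest in pool 4.

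Coagulation and fibrinolysis genes took 2.096% ± 0.148, with 27 of 32 genes in the table at 1 CPM or more in every pool. Plasminogen (plg) had 3489 ± 380.9 CPM, and the fibrinogen chains fgg, fga and fgb had 2901 ± 72.2, 2484 ± 237.3 and 2263 ± 266.8 CPM. The gamma chain fgg was among the 10 annotated genes of least spread, with 3002, 2837, 2865 and 2901 CPM. Antithrombin (serpinc1) had 1871 ± 117.5 CPM and prothrombin (f2) 1459 ± 139.0 CPM.

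Complement genes took 2.66% ± 0.230, and 29 of 38 in the table were at 1 CPM or more in every pool. The C3 gene c3a.1 led with 10331, 9661, 8581 and 9401 CPM, followed by c3a.3 with 2499 ± 203.6 CPM and by the pore-forming c9 with 2418 ± 217.8 CPM. Since the C3 copies resemble one another, the division of reads between them is uncertain. Of the protease inhibitors, serpina1l and serpina1, both of the alpha-1-antitrypsin family, had 5555 ± 648.3 and 1999 ± 162.7 CPM, and ambp, the precursor of alpha-1-microglobulin and bikunin, had 892.7 ± 13.4 CPM.

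Acute phase and antimicrobial genes took fewer counts than these. Of 28 genes found in the table, 12 reached 1 CPM in every pool, and the list took 0.529% ± 0.0505, of which C3b.1 alone was 38.56%. C3b.1 was also counted in the complement share, and fgg in both the plasma carrier and the coagulation shares, so the shares of lists overlap. Hepcidin (hamp), which blocks iron release, had 165.1, 84.57, 63.54 and 124.5 CPM, and haptoglobin (hp) had 301.1 ± 52.1 CPM. Serum amyloid A (saa) and the cytokine genes il1b, tnfa and il6 had a count of 0 in all 4 pools. A count of 0 among 5283456 ranked counts allows a level of up to 0.568 CPM (3 counts), as far as counting error goes. A 0 in this table does not by itself show that a gene was silent: surf4, a cargo receptor of the secretory pathway that most cells use, also had 0 counts in all pools.

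**Figure D3:**
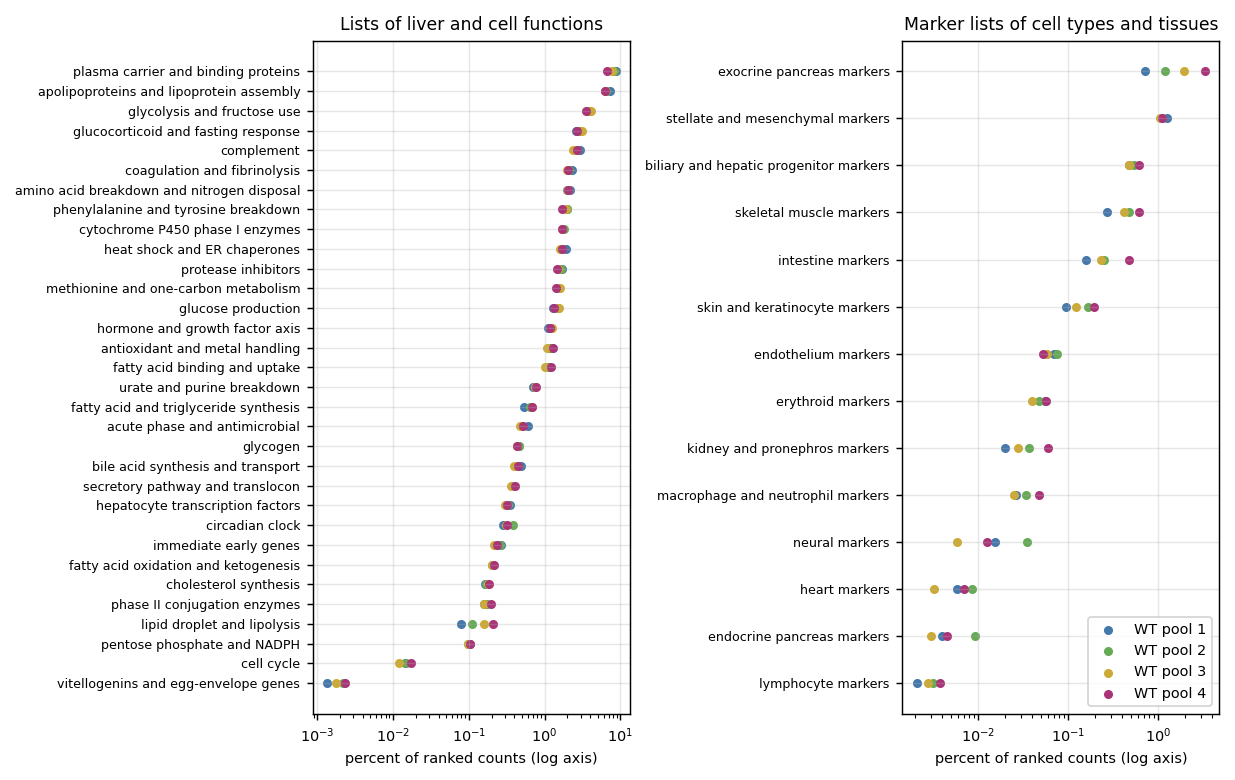
Points are the percent of the ranked counts (log axis) that the genes of a list took in each of the 4 WT pools, for lists of functions on the left and marker lists of cell types and tissues on the right; the retina and lens list, at 0 in pool 3, is not drawn. Plasma carriers lay at 6.58% to 8.66%, and among the marker lists the neural list, at 0.00587% to 0.0353%, and the exocrine pancreas list, at 0.720% to 3.35%, had the highest ratios between pools.

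Genes that make fatty acids and cholesterol took fewer counts than the genes that export lipid. Fatty acid and triglyceride synthesis took 0.639% ± 0.0765, and lipin 1 (lpin1), a phosphatidate phosphatase, was 63.5% of it with 3303, 4229, 4538 and 4163 CPM. Fatty acid synthase (fasn) had 149.2 ± 26.0 CPM and acetyl-CoA carboxylase (acaca) 88.15 ± 13.1 CPM. Stearoyl-CoA desaturase (scd) had counts in pool 4 only, at 2.503 CPM. Diacylglycerol acyltransferase 2 (dgat2), which makes the last step to triglyceride, had 460.0 ± 49.5 CPM.

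Cholesterol synthesis and its control took 0.174% ± 0.0111 over 30 genes in the table. The low-density lipoprotein receptor (ldlra) and the sterol sensor insig1, which belong to its control, led with 685.5 ± 89.6 and 386.2 ± 57.3 CPM. The enzymes took fewer counts: hmgcra, the rate-limiting reductase, had 68.12, 31.82, 18.50 and 18.77 CPM, with pool 1 above the others, and dhcr7 had 105.4 ± 3.93 CPM. The regulators srebf1 and srebf2 had 120.3 ± 11.1 and 85.68 ± 24.0 CPM.

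Lipid uptake was led by fabp10a and by lipoprotein lipase (lpl), which had 2032, 1957, 1901 and 1905 CPM. The fatty acid transporter slc27a2a had 1649, 1415, 1695 and 959.8 CPM. Fatty acid oxidation and ketogenesis took 0.206% ± 0.00801, with 37 of 40 genes in the table at 1 CPM or more in every pool and none at 0. The median of its 40 genes was 25.75 CPM, and the medium-chain dehydrogenase acadm stood above it with 134.9 ± 24.9 CPM. The droplet coat gene plin2 had 3.36 ± 1.74 CPM and the droplet fusion gene cidec 147.0 ± 10.4 CPM.

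Bile acid genes took 0.444% ± 0.0363. The bile salt export pump (abcb11b) was highest with 2181, 1801, 1468 and 1512 CPM, and the canalicular exporter abcc2 had 755.0, 677.4, 665.2 and 662.0 CPM. Cholesterol 7-alpha-hydroxylase (cyp7a1), the rate-limiting enzyme of bile acid synthesis, had 140.3, 157.4, 229.2 and 330.4 CPM and was thus 2.36 times as high in pool 4 as in pool 1. The bile acid uptake carrier slc10a1, a hepatocyte gene in mammals, had a single count in pool 2 and none in the other 3.

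Enzymes of amino acid breakdown were abundant in every pool. The genes of phenylalanine and tyrosine breakdown, with 10 of 13 at 1 CPM or more in every pool, took 1.90% ± 0.142. Tat had the most counts, then 4-hydroxyphenylpyruvate dioxygenase (hpda) with 6418, 6367, 5571 and 4709 CPM. Phenylalanine hydroxylase (pah), which makes tyrosine, had 2125, 1756, 1627 and 1526 CPM, while homogentisate dioxygenase (hgd) had 385.7 ± 24.3 CPM and the last enzyme, fumarylacetoacetase (fah), had 118.7 ± 18.3 CPM.

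In methionine and one-carbon metabolism (1.54% ± 0.0814, with 37 of 39 genes at 1 CPM or more in every pool), betaine-homocysteine methyltransferase (bhmt) had 4748 ± 516.9 CPM. Adenosylhomocysteinase (ahcy) had 2239 ± 190.0 CPM and methionine adenosyltransferase (mat1a) 1244 ± 88.5 CPM. The other amino acid enzymes took 2.06% ± 0.0709, led by alanine-glyoxylate aminotransferase (agxtb) with 5146 ± 286.4 CPM, glutamate dehydrogenase (glud1b) with 2385 ± 138.0 CPM and tryptophan dioxygenase (tdo2b) with 1965 ± 73.5 CPM. The amino acid transporter slc38a4 ranked 29 with 3412, 4320, 4703 and 3654 CPM.

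The urea cycle genes cps1, otc and arg1 were at or near 0 counts. Carbamoyl phosphate synthetase (cps1), the entry enzyme of that cycle, had 1 count in pool 1 and none elsewhere, ornithine transcarbamylase (otc) had none in any pool, and arg1 had 0, 3.35, 0 and 0.626 CPM. Arginase 2 (arg2), the mitochondrial form, had 905.6, 913.6, 994.1 and 1057 CPM. Purine breakdown took 0.746% ± 0.0261 of the counts, with the nucleoside phosphorylase pnp5a at 3520 ± 278.9 CPM and urate oxidase (uox), which is lost in apes, at 1252 ± 70.9 CPM.

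Glycolysis and fructose use took 3.86% ± 0.222 of the ranked counts, and glucose production took 1.43% ± 0.122. Phosphoenolpyruvate carboxykinase (pck1), the first committed enzyme of glucose production, ranked 17 with 5992, 6977, 8263 and 6195 CPM. Glucose 6-phosphatase (g6pca.2), which releases glucose, had 1812 ± 186.6 CPM and fructose bisphosphatase (fbp1b) 1332 ± 101.6 CPM. Glucokinase (gck), which traps glucose after a meal, had counts in pools 3 and 4 only, with 0.804 and 0.626 CPM. The liver pyruvate kinase pklr had 2437 ± 257.6 CPM, glycogen phosphorylase (pygl) 1287 ± 50.7 CPM and glycogen synthase (gys2) 673.1 ± 100.2 CPM. Genes of the response to glucocorticoids and fasting, a list that shares tat, pck1 and both igfbp1 genes with the lists above, took 2.86% ± 0.234, and the kinase sgk1 had 1109, 1295, 1527 and 1204 CPM. Of the 29 members of that list with at least 10 CPM, 17 were lowest in pool 1, against 28.4% of all 7186 rows at that level.

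Phase I enzymes took 1.74% ± 0.0695 and phase II enzymes 0.172% ± 0.0177. The carboxylesterase ces2a had 6519, 6245, 5180 and 5269 CPM. Vitamin D 24-hydroxylase (cyp24a1), which inactivates vitamin D, took the most counts of the cytochrome P450 genes listed, with 4503, 4817, 5045 and 4491 CPM, and the xenobiotic enzyme cyp3a65 had 2106 ± 220.9 CPM. Dioxin-inducible cyp1a had 433.2 ± 91.1 CPM. The highest phase II gene, the glutathione transferase gstt1a, had 149.7 ± 16.1 CPM.

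Transcription factors of the hepatocyte took 0.328% ± 0.0194, and 46 of 53 in the table reached 1 CPM in every pool. The homeobox gene prox1a had 316.6, 282.2, 218.8 and 182.1 CPM, the nuclear receptor hnf4a 104.0 ± 16.2 CPM and foxa3 63.16 ± 14.2 CPM. Among hormone genes the thyroid hormone inactivating deiodinase dio3b had 1372, 1634, 1627 and 1398 CPM, angiotensinogen (agt) 1033 ± 145.6 CPM, and igf1 had 0, 1.675, 0 and 2.503 CPM. The growth factor fgf21, a fasting hormone of mammalian liver, had a count of 0 in all pools.

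Cell cycle genes took 0.0147% ± 0.00211, with 13 of 39 at 1 CPM or more in every pool; pcna, the replication clamp, had 7.60 ± 2.16 CPM, mki67 had 0.801, 2.51, 4.83 and 6.88 CPM, and the mitotic kinase cdk1 had 0 counts. Vitellogenins, the yolk precursors that the liver of mature females makes, were at or near 0: vtg4, vtg5 and vtg6 had no counts, and vtg1 had 1.603 CPM in pool 1 alone. The estrogen receptor esr2b had 12.76 ± 2.53 CPM.

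Markers of other cell types of the liver were detected. Endothelium markers took 0.0638% ± 0.0102, with 24 of 30 at 1 CPM or more in every pool; the vascular receptor kdrl had 186.7, 230.3, 146.4 and 118.9 CPM. Biliary and progenitor markers took 0.532% ± 0.0630, but keratin genes made up most of it, and krt8 alone, with 1616, 1573, 1622 and 1640 CPM, was 30.3%. Annexin A4 (anxa4), a biliary marker in zebrafish, had 884.8, 1032, 753.6 and 856.6 CPM, and sox9b had 16.72 ± 2.19 CPM. The gene epcam had 20.84, 25.12, 22.52 and 53.18 CPM, lowest in pool 1 and highest in pool 4. Of 23 members with at least 10 CPM, 12 were highest in pool 4 and 8 in pool 2, against 36.6% and 24.7% of all 7186 rows. How far the biliary levels come from liver cells was not tested. Stellate and mesenchymal markers without fn1b summed to 567.4, 716.0, 556.6 and 941.7 CPM over 44 genes, of which 29 reached 1 CPM in every pool. The basement membrane collagen col4a1 led with 82.71 ± 11.9 CPM, and pdgfrb, a defining pericyte gene, had 0 counts. The next members, desma (23.24, 51.92, 42.63 and 83.22 CPM) and myh11a (22.44, 26.80, 37.00 and 90.73 CPM), were lowest in pool 1 and highest in pool 4. In contrast, col4a1 and vim were highest in pool 2. What part of this sum comes from liver cells was not tested.

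Immune markers took few counts, and the defining ones were near the limit of detection. The macrophage and neutrophil list, leaving out the amino acid transporter slc43a2b, which had the pool order of the gut genes (61.71, 121.4, 83.65 and 281.6 CPM), summed to 204.4, 222.7, 170.5 and 193.3 CPM. Most of that sum lay on the galectin lgals3a, with 73.78 ± 23.2 CPM, and on the lysosomal protease cathepsin B (ctsba), which many cell types express, with 55.85 ± 4.77 CPM. Of its defining genes mpeg1.1 had 2.53 ± 1.31 CPM, marco 2.94 ± 1.55 CPM, the neutrophil gene mpx 0.871 ± 1.01 CPM, and the complement gene c1qa had 0 counts. Lymphocyte markers took 0.00296% ± 0.000700, and cd8a and cd4-1 had 0 counts. The 11 globin genes in the table summed to 8.82, 12.6, 14.5 and 46.9 CPM, highest in pool 4, while hbaa1 and hbba1 had 0. Globin copies are nearly identical, so their reads may have been left out of the counts.

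Genes of neighbouring organs differed between the pools. The exocrine pancreas markers, digestive enzymes such as trypsin (prss1) and amylase (amy2a), took 0.720%, 1.195%, 1.94% and 3.35% of the ranked counts in pools 1 to 4. The 95% Wilson interval for counting error was 0.705% to 0.735% in pool 1 and 3.33% to 3.38% in pool 4. The pool with the most pancreatic counts thus had 4.66 times the share of the pool with the least. Trypsin had 815.9, 1320, 2113 and 3463 CPM, amylase 788.6, 1246, 2024 and 3493 CPM, and the elastase ela2l 640.4, 1048, 1621 and 2545 CPM. Of the 27 members with at least 10 CPM, 26 were highest in pool 4 and all 27 lowest in pool 1, against 36.6% and 28.4% of all 7186 rows at that level. How far acinar cells dissected with the liver account for this was not tested. Endocrine pancreas genes were low, with insulin (ins) at 10.4, 14.2, 4.83 and 9.39 CPM.

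Intestine markers took 0.158%, 0.249%, 0.234% and 0.477%, lowest in pool 1 and highest in pool 4. The intestinal fatty acid binding protein fabp2 had 87.36, 195.1, 168.1 and 520.6 CPM, the peptide transporter slc15a1b 51.29, 118.1, 103.0 and 301.6 CPM, and the microvillus protein vil1 56.90, 119.7, 78.02 and 265.3 CPM. Of 24 members with at least 10 CPM, 21 were highest in pool 4 and 19 lowest in pool 1, against the same 36.6% and 28.4% of all rows. The list also holds genes that liver may express, and apoa4b.1, its highest member, varied less, with 511.3, 588.7, 640.2 and 759.6 CPM. The ileal bile acid binding gene fabp6 had 0 counts.

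Skeletal muscle markers took 0.273%, 0.476%, 0.418% and 0.619%, and 26 of 34 members at 10 CPM were highest in pool 4, against 36.6% of all rows, or 23 of 34 against 28.9% with TMM factors. Titin (ttn.1) had 270.9, 612.1, 479.4 and 942.9 CPM. Fast myosin heavy chains did not move as 1 group: myhz2 had 34.46, 136.5, 103.0 and 292.8 CPM and was highest in pool 4, whereas myhz1.1 had 133.8, 344.2, 189.0 and 122.6 CPM and was highest in pool 2. Myosin heavy chain b (myhb) had 8.82, 18.4, 19.3 and 182.7 CPM, the widest range of any annotated gene at 50 CPM, with a ratio of 20.7. Its mean passed 50 CPM only through pool 4.

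Neural markers took 0.0156%, 0.0353%, 0.00587% and 0.0128%, which at a ratio of 6.02 was the widest range of any list with counts in every pool, on 73 to 422 counts. All 5 members with at least 10 CPM were highest in pool 2, against 24.7% of all rows at that level. The neuronal RNA-binding gene elavl3 had 12.02, 46.06, 8.043 and 15.64 CPM. Skin and keratinocyte markers took 0.0947%, 0.166%, 0.123% and 0.196%, and kidney markers, mostly atp1a1a.4, took 0.01996%, 0.0372%, 0.0277% and 0.0604%. Of 22 retina and lens genes 15 had 0 counts in all pools and none reached 1 CPM in every pool. In bulk RNA, more cells of a type and more RNA per cell cannot be told apart.

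**Figure D4:**
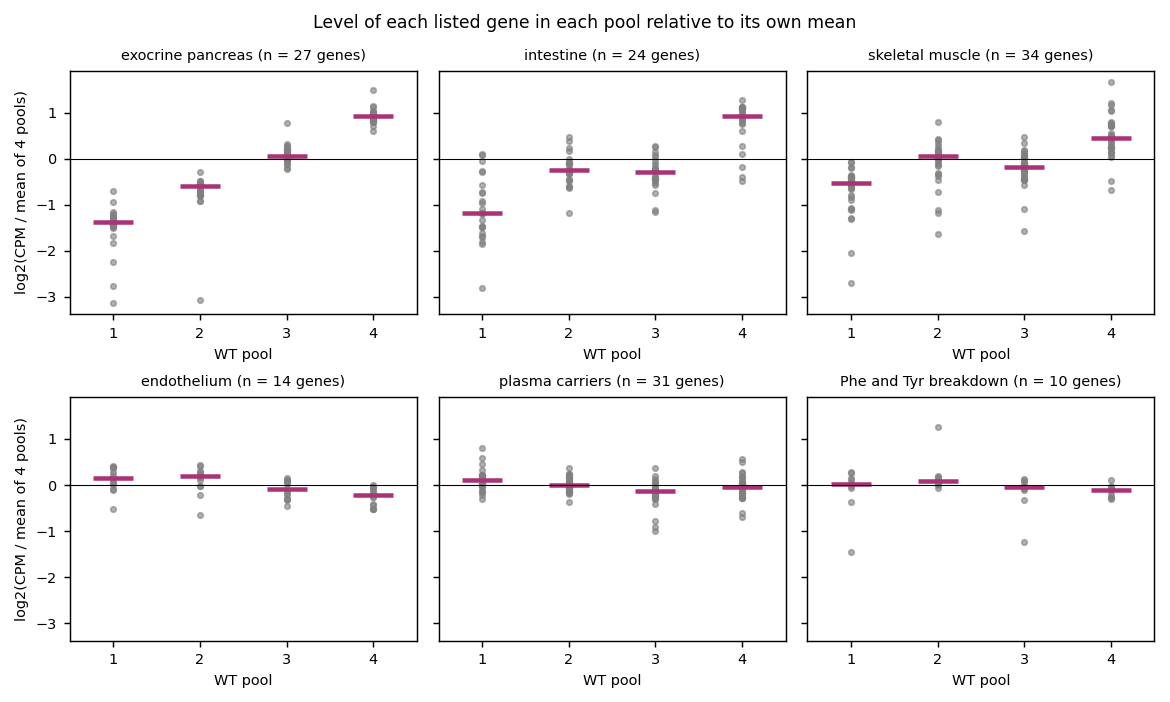
Each grey point is 1 listed gene with a mean of at least 10 CPM, placed at the log2 ratio of its CPM in a pool to its own mean over the 4 WT pools, and the purple bars are the medians over the list. The exocrine pancreas genes lay below 0 in pool 1 and above 0 in pool 4, for all 27 members, while the plasma carriers and the enzymes of phenylalanine and tyrosine (Phe and Tyr) breakdown stayed closer to 0.

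Over all genes the pools were alike within moderate limits. The median CV was 20.7% for the 7186 rows with a mean of at least 10 CPM, against 16.3% from counting alone. At 100 CPM or more it was 13.3% against 6.00%, and at 1000 CPM or more 10.6% against 2.09%, so that counting error set little of the spread of the abundant genes. The common biological coefficient of variation, the spread beyond counting in edgeR's negative binomial model, was 18.9% over 6497 genes. For each pair of pools the counts differed by more than sampling noise, by a chi-square of 3.46 to 11.3 per gene (1 is the value for sampling noise alone). The closest pair was pools 1 and 2 and the most distant pair pools 1 and 4, and across 7186 genes, which are not independent replicates, Pearson's r of log2(CPM + 1) lay between 0.920 and 0.950.

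**Figure D5:**
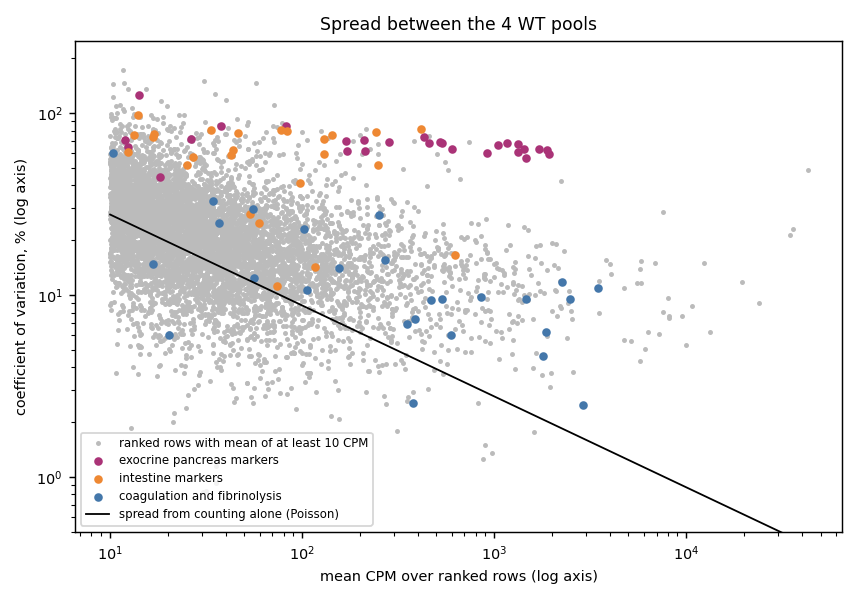
The coefficient of variation between the 4 WT pools (log axis) is plotted against the mean CPM over ranked rows (log axis) for the 7186 rows with at least 10 CPM, and the black line is the spread from counting alone. Coagulation genes (blue) with over 1000 CPM lay at or below a CV of 11.8%, exocrine pancreas genes (purple) of the same level at 56.4% or more.

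Among 2232 rows with a mean of at least 50 CPM, 213 (9.54%) differed at least 2-fold between the highest and the lowest pool. In pool 4 lay the highest level of 127 of them, and 106 of these were lowest in pool 1. Pool 1 held the highest level of 41, pool 3 of 31, of which 17 had clone or placeholder names, and pool 2 of 14. Some rows of this set, such as myhb, abca1b and cd36, reached a mean of 50 CPM only through pool 4, where they were high. Others, such as mycb, fosab, lipca and hsp90aa1.2, did so only through pool 1. The limit on the mean thus adds such rows to the list counts below, and no trait of a list is read from those counts. All 21 exocrine pancreas genes at 50 CPM were in this set, 9 of 14 intestine genes and 13 of 23 muscle genes. The function lists named next were picked for high or low counts in the set, in which 9.54% of all rows lay. In it were 3 of 6 lipid droplet genes, 6 of 15 immediate early genes, 3 of 9 genes of fatty acid binding, 4 of 19 antioxidant genes and 3 of 16 heat shock genes. Some of these repeat genes of the tissue lists. The lipid droplet genes cel.1 and cel.2 were also on the exocrine pancreas list, and the fatty acid binding gene fabp2 was also on the intestine list. Of 21 apolipoprotein genes 6 were in the 2-fold set, 5 of them highest in pool 4. Further lists had members in the set too, such as phase II with 3 of 14, clock genes with 3 of 19 and complement with 3 of 20. At the low end were 0 of 21 coagulation genes, 0 of 35 amino acid breakdown genes, 0 of 24 cytochrome P450 and other phase I genes and 0 of 23 genes of the secretory pathway.

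Of the 10 annotated genes of highest CV among 1050 with at least 100 CPM, 4 were on the intestine list and 1 each on the exocrine pancreas and muscle lists. Those reported here are the chitinase chia.2 (81.4%), fabp2 (78.6%), myhz2 (77.2%), slc15a1b (76.1%), the pancreatic disulfide isomerase pdia2 (75.9%), slc43a2b (72.5%), vil1 (72.2%), syncollin (sycn.2, 71.4%) and the dicarboxylate carrier slc13a2 (70.7%). Each of these was lowest in pool 1 and highest in pool 4. Some of them reached a mean of 100 CPM only through pool 4, such as slc13a2 with 31.26, 95.46, 86.86 and 209.6 CPM. The limit on the mean thus favours this order, and nothing further is read from it. Some stress and growth genes had their highest level in pool 1 instead. The transcription factor gene egr1, an immediate early gene, had 759.8, 397.8, 161.7 and 217.7 CPM, and the stress-inducible chaperone hsp90aa1.2 had 185.9, 57.78, 22.52 and 18.15 CPM, while the constitutive hsp90ab1 had 9008, 8094, 7488 and 8047 CPM. The growth regulator mycb had 111.4, 79.55, 36.19 and 28.78 CPM and the immediate early gene fosab 100.2, 44.38, 53.89 and 31.91 CPM. Immediate early genes did not move as 1 group. Of 25 with at least 10 CPM, 10 were highest and 12 lowest in pool 1, against 25.4% and 28.4% of all 7186 rows. The gene fosl2, among those lowest there, had 64.92, 137.3, 191.4 and 202.7 CPM.

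Clock genes had another order again, and 16 of 27 members with at least 10 CPM were highest in pool 2, against 24.7% of all rows, or 11 of 27 against 16.6% with TMM factors. The circadian repressor nr1d1 had 281.3, 379.3, 286.3 and 274.7 CPM, and nfil3-6 had 143.5, 294.8, 113.4 and 81.34 CPM, whereas the light-inducible per2 had 105.8, 236.1, 240.5 and 196.5 CPM. The time of day of each dissection was not given in the labels.

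The 10 annotated genes of lowest CV in the same set came from varied functions. Cytidine deaminase b (cdab) had 892.0, 867.5, 871.1 and 872.9 CPM, a CV of 1.26%. The ribosomal protein gene rpl13 had a CV of 1.35%, ambp 1.503%, krt8 1.77%, the membrane glycoprotein gene bsg 1.78%, the isoleucyl-tRNA synthetase iars1 2.08%, the electron transfer flavoprotein etfb 2.17%, fgg 2.49% and MGARP, a mitochondrial protein gene, 2.52%. For all of those named here but fgg the CV was below what counting alone gives on average, as the lowest values of so many genes can be.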

How the data were processed

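Total RNA of larval zebrafish livers was sequenced as paired 75-base reads from a kit for very small inputs, per the labels' protocols, with a stated depth of 15M per sample. The submitters' processing notes name the build danRer10, the trimmer cutadapt 1.16, the aligner HISAT2 2.1.0, the counter featureCounts 1.6.0 and, beside them, limma 3.40.6. Annotation and strand setting: not given in the sources used here. Reads of genes that overlap, or lie antisense to each other, may therefore be mixed. The authors deposited whole-number counts per row and the CPM of each library, which equal the counts scaled to 1000000 over all rows within 0.0005. Of 35117 rows, 6518 have no gene name and held 0.657% to 1.29% of a WT library's counts; these were left out. Another 19 names look like dates. Where a symbol stood on several rows (405 symbols), the row of highest mean was used for the lists and the named genes. The ranks, the totals and the counts of rows kept all of these rows.

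Deposited counts were rescaled to CPM over the named rows left after the row annotated as ribosomal RNA in RefSeq (GRCz12tu) and 37 mitochondrial rows were set aside, without further scaling factors. Of 28599 named rows, 19352 matched a RefSeq symbol. The 47 gene lists held 1593 symbols, of which 1436 were in the table (13 through a RefSeq synonym). The group, the lists and the members were chosen with earlier results of these data known, and some list members were removed after their values had been seen. Named are the 4 markers, the 30 highest rows, up to 5 detected genes of each list, listed genes with 0 counts, and the 10 annotated genes of highest and of lowest CV at 100 CPM or more; other names are further examples chosen after their values were seen. The common biological coefficient of variation came from edgeR 4.0.16 (R 4.3.3) with an intercept alone, TMM factors and filterByExpr, and was tested on simulated data; DESeq2 1.42.0 served as an alternative. Floors are 3 counts, and Wilson intervals have a level of 95%; both cover counting error only, since reads without molecular identifiers are not independent molecules. A few named rows are not reported here. No sequence is printed, since none was read.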

Additional observations from a re-analysis of the deposited data

Results flagged for a closer look

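Of 232 named genes, 8 had 1 pool far from the other 3, by a gap that filled most of the range (beyond Dixon's 95% critical value for 4 samples), which is 3.45%; chance flags about 1 in 20 groups of 4. Pool 1 stood apart for abcc2 (755.0 CPM, the others 662.0 to 677.4), for gch1, the first enzyme of tetrahydrobiopterin synthesis (323.8 CPM, the others 446.1 to 448.0), for bsg (319.8 CPM, the others 308.2 to 309.1) and for the pentose phosphate gene taldo1 (76.94 CPM, the others 83.74 to 85.10). For bsg and taldo1 the CV was 1.78% and 4.59%, below the 4.96% and 9.64% from counting alone. Their gaps thus lie within counting error. Pool 2 stood apart for nr1d1 (379.3 CPM, the others 274.7 to 286.3), for the endocrine and neuronal transcription factor neurod1 (29.31 CPM, the others 3.13 to 4.81) and for the prohormone convertase pcsk2 (10.89 CPM, the others 1.603 to 3.13). Pool 4 stood apart for the bilirubin conjugating enzyme ugt1a1 (175.8 CPM, the others 121.0 to 127.1).

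Of 47 lists, the apolipoprotein list was flagged, with 7.41% of the ranked counts in pool 1 and 6.23% to 6.41% in the others. Of 7 library measures the ranked counts were, with 1598200 in pool 4. Neurod1 and pcsk2 were high in the pool where the neural list was also highest (0.0353%). The endocrine pancreas list, whose highest member is neurod1, was highest there too, with 0.00401%, 0.00938%, 0.00298% and 0.00457% in pools 1 to 4. The part of neural tissue or endocrine pancreas in these levels was not tested.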

How the results depend on the processing

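The same 30 rows were highest under TMM factors, DESeq2 size factors, CPM over all named rows and without each pool in turn (30 to 30 shared). Leaving out clone and placeholder names, a choice made after seeing the data, kept 26 of them. That number follows almost by construction, since the rows that dropped out were the ones with such names. With ribosomal and mitochondrial rows kept, 3 rows held 50% of the counts, against 128, and without 1 pool it was 116 to 138. Detected rows were 7923 at 5 CPM, 13761 at 0.5 CPM and 11894 to 12573 without 1 pool. Over all named rows, 5 lists held at least 1% of counts in place of 18 (18 to 18 without 1 pool): plasma carriers fell to 3.34%, apolipoproteins to 2.79%, complement to 1.13%, intestine to 0.1184% and muscle to 0.189%. The median CV was 34.4% at 1 CPM and 13.3% at 100 CPM, against 20.1% under either scaling, 20.4% without the marker lists (added after seeing the data) and 18.5% to 20.1% without 1 pool. The biological coefficient of variation was 22.6% without the low-count filter, 9.92% as the median gene-wise DESeq2 estimate and 16.4% to 20.8% without 1 pool. Genes differing 2-fold numbered 1786 at 10 CPM, 98 at 100 CPM, 207 and 212 under TMM and DESeq2 scaling, 165 without the marker lists, and 108 to 196 without 1 pool: 138 without pool 1 and 108 without pool 4, fewer pools giving fewer by construction. CPM over all named rows moved 200 of the 232 named levels by over 1 SD, by the construction of that scale; leaving out 1 of 4 pools cannot move a mean that far.

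TMM scaling raised the median gene of pool 3 by 0.139 (log2) and DESeq2 scaling by 0.145. The count of rows lowest in pool 3 then fell to 20.3% and 20.6%, against 35.9%, while 26 of 27 exocrine pancreas genes were highest in pool 4 under both; 25 of 27 were then lowest in pool 1. Of the 31 plasma carriers, 8 were then lowest in pool 3 under both, against 17, and 14 and 17 in pool 4, against 9. The share of all rows lowest in pool 4 under these scalings is not given here, so no excess is read from that rise. Of 27 clock genes 11 and 12 were highest in pool 2. The TMM shares of all rows highest in pools 4 and 2 stand above, with the muscle and the clock genes. The DESeq2 shares for these pools, and the shares lowest in pool 1 under either scaling, are not given here. No excess is read from the counts that lack them.

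No paired analysis was possible because only WT libraries were used and no result comes from a test between groups. A ranking per coding length was not run, since no transcript or protein lengths were used here. With 1194211 to 1598200 ranked counts per library, a level of 3 counts is 1.88 to 2.51 CPM in a single pool, so that levels near or under it were not measured.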

Other observations

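Several lipid and transport genes that belong to no tissue list had the order of pools of the gut genes, lowest in pool 1 and highest in pool 4. The cholesterol exporter abca1b had 15.23, 35.17, 47.45 and 103.2 CPM, and the long-chain acyl-CoA synthetase acsl5 had 24.85, 68.66, 52.28 and 141.4 CPM, while the paralog abca1a had 1213, 1679, 1928 and 1758 CPM and was highest in pool 3. The amylase and trypsin levels given in the report were also lowest in pool 1 and highest in pool 4, and whether the gut or the pancreas contributes to these lipid genes was not tested.

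In a further pair of metabolic genes pool 1 was at one end of the range: foxo1a, a transcription factor that insulin restrains, had 189.1, 357.6, 386.9 and 395.4 CPM, with pool 1 below the other 3, and the creatine synthesis enzyme gatm had 403.9, 344.2, 267.8 and 181.5 CPM, with pool 1 highest.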
